A study of Mus musculus with 2 samples.

Results

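Ankrd1, Ankrd2, Ankrd23, Xirp1, Xirp2, Nrap and Smpx encode striated muscle proteins that sit where force passes through the cell, at the titin spring, the Z-disc and the intercalated disc. These 7 genes were taken by symbol from the transcript tables and joined by gene identifier to the gene tables, which held 55536 annotated genes. The tissue was heart at 14 days of age, taken from males of B6CASTF1/J, a hybrid of the inbred strains C57BL/6J and CAST/EiJ, and total RNA was sequenced. The labels name no treatment. The 2 stranded, rRNA-depleted libraries with added spike-in RNAs, each from 300 ng of RNA, are called biological replicates 1 and 2 and formed a single group. The labels name 3 males and give both libraries the same donor label, and whether animals were pooled is not stated, so the spread between the libraries may be partly technical.

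The muscle ankyrin repeat proteins are Ankrd1 (also called CARP), Ankrd2 (Arpp) and Ankrd23 (Darp). They bind the N2A region of titin, the giant spring of the sarcomere, and also enter the nucleus, and their genes are known for responding to stretch and injury of muscle. Xirp1 and Xirp2 encode Xin proteins, which carry Xin actin-binding repeats and connect actin filaments to the catenins of the intercalated disc. Nrap is a LIM and nebulin-repeat scaffold for the assembly of actin filaments at the disc, and Smpx is a small X-linked muscle protein associated with the costamere.

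Of the 7 genes, 6 were expressed well above 1 TPM in both libraries, whereas Ankrd2 had 1 count in each library. TPM is an abundance scaled for transcript length and library size. Levels are from the RSEM-style gene tables as mean ± SD over both libraries (n = 2) unless the kallisto-style tables are named. The order of levels was Smpx, Ankrd1, Nrap, Ankrd23, Xirp2, Xirp1 and Ankrd2. The 7 genes together stood at 513.43 TPM in replicate 1 and 551.4 in replicate 2 and took 0.139% and 0.155% of expected counts. Their transcripts were divided very differently by the deposited estimates for Ankrd1, Ankrd23 and Smpx, and almost identically for Xirp1 and Xirp2.

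The coding sequences that set the forms of these genes apart are given first, in GRCm38 (mm10) with transcripts of GENCODE M21, because the coding forms whose shares follow differ by them. Capitals mark an exon or exon part that some annotated transcripts hold and others lack, and the 20 lower-case bases on each side are its neighbours in the spliced transcript named.
Nrap cassette exon (Nrap-202, chr19:56374364-56374468, minus strand, 105 bases): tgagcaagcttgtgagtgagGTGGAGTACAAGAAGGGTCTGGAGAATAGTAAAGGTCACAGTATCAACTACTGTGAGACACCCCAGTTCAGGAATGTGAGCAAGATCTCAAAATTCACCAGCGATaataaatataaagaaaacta
Nrap second exon (Nrap-201, chr19:56389390-56389484, minus strand, 95 bases): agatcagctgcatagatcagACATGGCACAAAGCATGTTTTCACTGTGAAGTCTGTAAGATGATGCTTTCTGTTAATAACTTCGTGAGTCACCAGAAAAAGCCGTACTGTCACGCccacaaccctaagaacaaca
Ankrd23 skipped exon (Ankrd23-201, chr1:36531909-36532007, minus strand, 99 bases): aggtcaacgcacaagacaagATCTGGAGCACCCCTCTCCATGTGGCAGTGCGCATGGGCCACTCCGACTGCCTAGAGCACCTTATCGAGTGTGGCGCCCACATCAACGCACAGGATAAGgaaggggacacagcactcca
Ankrd1 extended exon (Ankrd1-205, chr19:36114977-36114988, minus strand, 12 bases): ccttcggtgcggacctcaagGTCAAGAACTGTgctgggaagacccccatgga
Xirp2 extended exon (Xirp2-202, chr2:67519220-67519235, plus strand, 16 bases): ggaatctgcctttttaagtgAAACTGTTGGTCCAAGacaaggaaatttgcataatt
For Smpx the coding sequence is given whole, since 4 of its 8 transcripts carry it letter for letter and differ only outside it. Capitals mark the start codon.
Smpx coding sequence (Smpx-208, within chrX:157702974-157721059, plus strand, 255 bases, stop codon left out): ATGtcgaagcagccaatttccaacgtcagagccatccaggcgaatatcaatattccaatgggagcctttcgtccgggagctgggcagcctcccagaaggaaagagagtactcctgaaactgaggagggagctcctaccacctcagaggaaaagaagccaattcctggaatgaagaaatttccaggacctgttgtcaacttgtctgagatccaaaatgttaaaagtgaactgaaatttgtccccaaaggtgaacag

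The exons of these genes have repeated lengths. A length of 99 bases, enough to code for a whole ankyrin repeat, recurred in the ankyrin repeat genes. It occurred in 4 of 19 distinct exons of Ankrd1, 4 of 10 of Ankrd2 and 4 of 13 of Ankrd23. Of 446506 distinct exons of all genes, 0.598% had it. The exon that Ankrd23-204 lacks has this length. So did 6 of 53 exons of Nrap (11.3%), a nebulin-repeat gene, so the length alone does not mark an ankyrin repeat. Nrap held 15 exons of 105 bases and 8 of 108 bases among 53, and its cassette exon has the former length, that of a single nebulin repeat. Over all genes the lengths of 105 and 108 bases made up 0.577% and 0.546% of exons. The lengths of 99, 105 and 108 bases were chosen because they recur in these genes. A higher share than over all genes was therefore built in, and these shares are a description with no test. Xirp2 and Xirp1 are built otherwise. A single exon of 9265 bases makes up 77.3% of Xirp2-202, and 1 of 3394 bases makes up 58.1% of Xirp1-201. The coding sequences of the ankyrin repeat genes were 64.8% identical between Ankrd1 and Ankrd2, 60.3% between Ankrd1 and Ankrd23 and 62.1% between Ankrd2 and Ankrd23. In the annotated reference transcripts, no word of 31 bases was shared between any of the 7 genes. Reads of that length or longer that match these transcripts exactly therefore do not pass from one member to another. Sequences of the CAST/EiJ strain were not searched.

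Depth was 39130824 expected counts over annotated genes in replicate 1 and 46144867 in replicate 2, with spike-ins at 0.517% and 0.531% of counts. All 8 cardiomyocyte markers were detected, from 393 TPM for the calcium release channel gene Ryr2 to 10130 for Myh6, which matches the heart label. The libraries stood apart in markers of other tissue. All 7 atrial markers were lower in replicate 2 by the 2-fold rule given below, which called 3.17% of all genes tested, their summed level going from 1652 to 516 TPM. The 9 T cell and thymus markers went in sum from 1.60 to 49.3 TPM, and all 7 of them that could be tested were higher in replicate 2. Of 14 skeletal muscle markers, 2 reached 1 TPM in both libraries (Tnni2 and Mylpf), the sum was 4.06 and 5.10 TPM, and Myh2 and Myod1 had 0 counts. The fibroblast (4 genes), endothelial (3) and smooth muscle (3) markers were all detected, and 0 were called at 2-fold. The test at any ratio was passed by 21.6% of all genes and by 50.2% of genes with 2500 or more counts in each library. By it 4 of 4 fibroblast markers, all with that many counts, were lower in replicate 2 (median log2 ratio -0.27), as were 2 of 3 endothelial markers. Of the smooth muscle markers 1 was higher and 2 were lower. In such bulk samples, fewer cells of a type and less RNA per cell cannot be told apart.

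**Figure D1:**
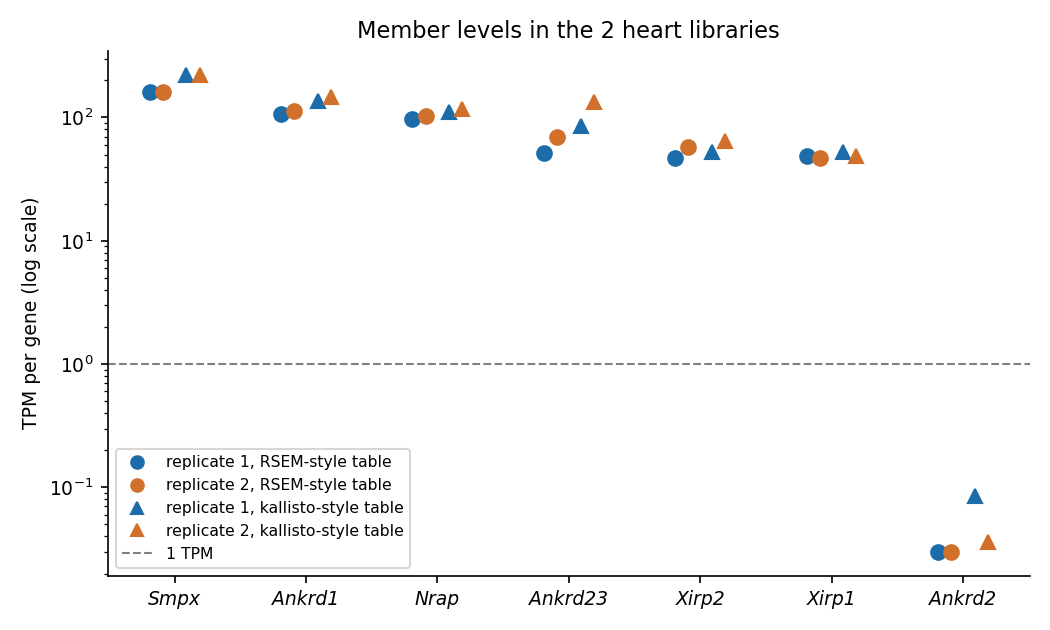
TPM of each gene on a log axis, as circles from the RSEM-style gene tables and triangles from the kallisto-style tables summed per gene, with replicate 1 in blue and replicate 2 in orange. Smpx leads in both tables, Ankrd23 moves furthest between the tables among the 6 detected genes, and Ankrd2 lies far under the 1 TPM line.

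Ankrd1 (chromosome 19, 36111961 to 36120099, minus strand) was the highest of the titin-binding ankyrin repeat genes. It stood at 107 TPM in replicate 1 and 113 in replicate 2 (110.3 ± 4.09), backed by 6055 and 7607 counts, and ranked 521st of 11408 detected nuclear protein-coding genes. Of the 47 genes found whose symbols begin with Ankrd and a number, 26 were detected, and Ankrd1 had the highest level, followed by Ankrd40 at 99.2 ± 1.44 TPM and Ankrd23.

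Ankrd23 (chromosome 1, 36530188 to 36536883, minus strand) was the most variable member. It had 51.4 TPM in replicate 1 and 69.6 in replicate 2 (60.5 ± 12.8), from 2931 and 4688 counts. Its coefficient of variation was 21.2%, while the median of the 1919 coding genes between 30 and 300 TPM was 3.74%, and 2.08% of them varied as much or more. A limit applies to every value of Ankrd23. Gm42417 (chromosome 1, 36530193 to 36539429), annotated on the same strand and running over both Ankrd23 and Ankrd39, shared 2109 exon bases and 76.2% of the 31-base words of Ankrd23, so the division of reads between them is uncertain. Gm42417 was given 119 and 263 counts in the RSEM-style tables and 646 and 727 in the kallisto-style tables. The sum of both genes was 72.5 TPM in replicate 1 and 108 in replicate 2, and in the kallisto-style tables it was 96.9 and 144. The sum was thus higher in replicate 2 by either division. By RSEM, Gm42417 made up 29.1% and 35.8% of the summed TPM on only 3.92% and 5.32% of the summed counts. By kallisto it made up 11.3% and 7.27% of the summed TPM on 19.4% and 13.5% of the counts. The size of the rise in summed TPM therefore rests partly on few counts by RSEM.

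Ankrd2 (chromosome 19, 42036000 to 42045110, plus strand), best known from slow skeletal muscle, had 1 count in each library, or 0.03 TPM in both. The exact 95% Poisson interval of a single count runs from 0.0253 to 5.57. For a ratio per length, counts were divided by mean transcript length less a fixed number of bases. On that scale Ankrd1 was 3291 times as abundant as Ankrd2 in replicate 1 (95% interval 590 to 129998). In replicate 2 it was 4154 times as abundant (745 to 164087), where the intervals cover counting error only. The kallisto-style tables held 2 and 1 counts. Within the family, Ankrd1 made up 67.6% of TPM in replicate 1 and 61.9% in replicate 2, Ankrd23 made up 32.4% and 38.1%, and Ankrd2 made up 0.0189% and 0.0164%.

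The Xin pair stood close together per length. Xirp2 (chromosome 2, 67446002 to 67526614, plus strand), also known as myomaxin, had 47.2 TPM in replicate 1 and 57.3 in replicate 2 (52.2 ± 7.18). Xirp1 (chromosome 9, 120013755 to 120023598, minus strand) had 48.4 and 46.8 TPM (47.6 ± 1.15). Their ranges overlapped, and which gene was higher changed with the library: Xirp1 held 50.7% of the pair's TPM in replicate 1 and 45.0% in replicate 2. Xirp2 has a far longer transcript and so drew more counts, 17144 and 24960 against 8448 and 9333 for Xirp1.

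Nrap (chromosome 19, 56320035 to 56390037, minus strand), the scaffold of developing actin filaments, had 97.8 TPM in replicate 1 and 103 in replicate 2 (100.2 ± 3.34) from 15473 and 19447 counts. It ranked 578th among detected nuclear coding genes. Smpx (chromosome X, 157698910 to 157752591, plus strand) was the highest and the steadiest member, with 161.2 and 161.9 TPM (161.6 ± 0.530), and ranked 366th. Its transcripts are short, so that level rested on 4448 and 5271 counts, fewer than those of Xirp1 in either library.

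Neighbours in the order of levels were set apart only where both libraries of the higher gene lay above both of the lower. Smpx lay above Ankrd1 (1.46-fold by the means), Ankrd1 above Nrap (1.10-fold), Nrap above Ankrd23 (1.66-fold) and Xirp1 above Ankrd2. The ranges of Ankrd23 and Xirp2 overlapped, as did those of Xirp2 and Xirp1. With 2 libraries the smallest 2-sided p of an exact permutation test is 0.5, so the order is given as a description with no test. The kallisto-style tables gave the same order of means. There Nrap (110 and 117 TPM) and Ankrd23 (86.0 and 134) overlapped, with Ankrd23 the higher in replicate 2. By kallisto Ankrd23 lay above Xirp2 (52.1 and 64.4 TPM) in both libraries. In the RSEM-style tables, with transcripts annotated as protein-coding alone, Nrap came before Ankrd1, whose level was then 79.3 TPM. By kallisto the protein-coding Ankrd1-205 alone had 129 and 138 TPM, above all transcripts of Nrap together.

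The genes with levels most like each member, by the distance of log2(TPM + 0.1) over both libraries among 22015 protein-coding genes, were of many kinds. For Ankrd1 they were the ribosomal protein gene Rpl11 (105 and 114 TPM) and the chaperone gene Fkbp4, and for Ankrd23 the histone gene Hist1h2bg and Ppargc1a (52.5 and 65.1 TPM), a coactivator of mitochondrial genes. For Xirp1 they were Mical3 and the insulin receptor gene Insr, for Xirp2 Irf2bp2 and Papola, for Nrap Psmb4 and Txn2, and for Smpx Prdx1 and Prkaca. Ankrd2 tied with 30 genes at the smallest distance. This likeness covers only 2 values per gene.

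Between the libraries, none of the 6 members that could be tested differed by 2-fold. Genes were compared by a 2-sided exact binomial test on expected counts scaled by TMM (a trimmed mean of ratios that evens out library composition), with Benjamini-Hochberg adjustment over 16611 genes, and called at an adjusted p under 0.05 and a ratio of at least 2. The test compares these libraries and covers counting error only. The count of 0 of 6 stands beside 3.17% of all genes called, 2.44% higher and 0.728% lower in replicate 2. At any ratio 4 of the 6 passed, 3 higher and 1 lower in replicate 2, against 21.6% of all genes (10.7% higher and 10.9% lower) and 50.2% of the 1897 genes with 2500 or more counts in each library. As log2 of replicate 2 over replicate 1, the 6 members had a median of 0.05 and all genes tested a median of 0.01.

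**Figure D2:**
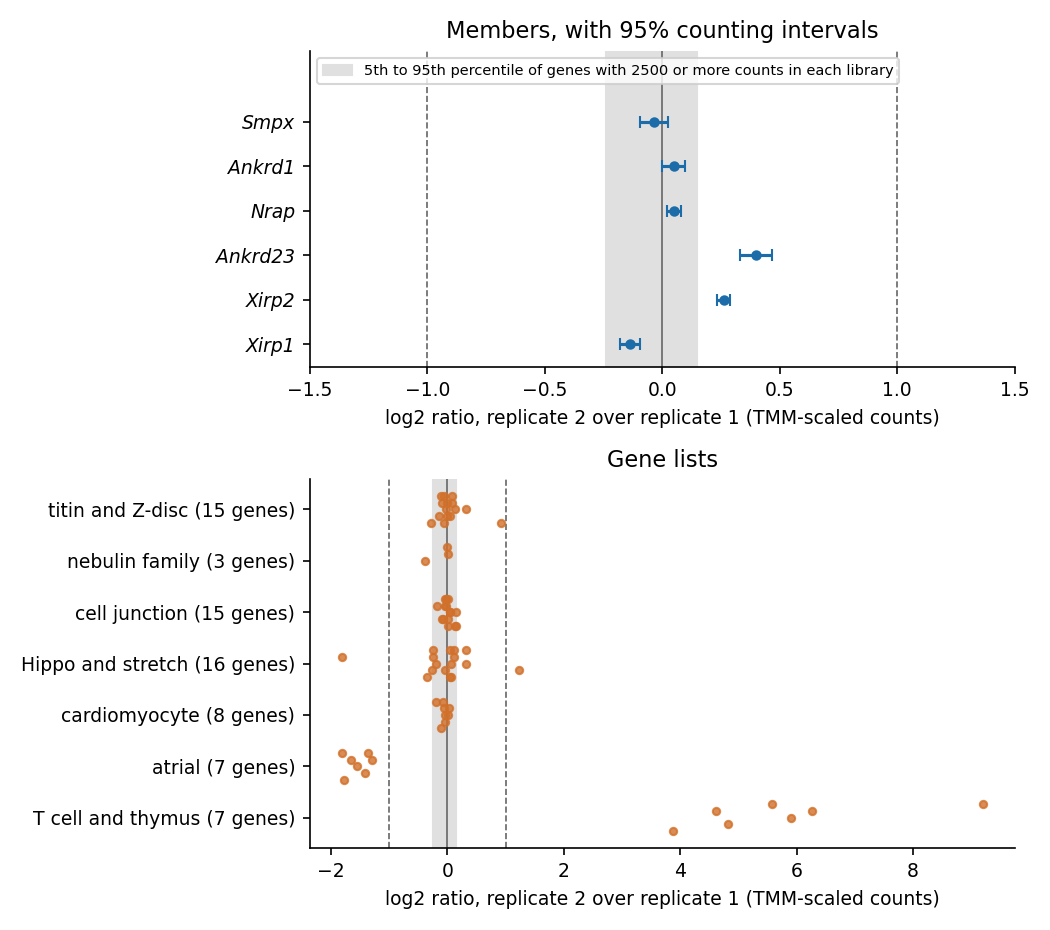
Log2 ratio of replicate 2 over replicate 1 from TMM-scaled counts, for the 6 members with 95% counting intervals (upper panel) and for each tested gene of 7 lists (lower panel, wider axis). The grey band spans the 5th to 95th percentile of genes with 2500 or more counts in each library (-0.24 to 0.15), the dashed lines mark 2-fold, and Ankrd23 and Xirp2 lie right of the band while atrial and T cell genes lie beyond the dashed lines.

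Ankrd23 showed the largest ratio of the 6, 1.32-fold higher in replicate 2 (95% interval 1.26 to 1.38; exact binomial test, Benjamini-Hochberg adjusted p = 2.57e-30). Summed with Gm42417, a setting chosen after the data were seen, the ratio was 1.34-fold (1.28 to 1.40). Among genes with 2500 or more counts in each library, 1.69% had a ratio as far from 1 as Ankrd23 in either direction. Xirp2 was 1.20-fold higher (1.18 to 1.22; adjusted p = 1.89e-73 by the exact binomial test), and 6.06% of those genes were as far from 1.

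Xirp1 moved the other way, its scaled counts being 0.910 of those in replicate 1 (0.884 to 0.937; exact binomial adjusted p = 8.50e-09). Its TPM, which also depends on the estimated transcript length, went from 48.4 to 46.8. Nrap was 1.04-fold higher (1.01 to 1.06; exact binomial adjusted p = 0.00840). Ankrd1 was at 1.04-fold (1.00 to 1.07; exact binomial adjusted p = 0.153) and Smpx at 0.976 (0.938 to 1.02; exact binomial adjusted p = 0.471), neither past the threshold. With library totals in place of TMM, the ratio of Smpx crossed to a log2 value of 0.0071 and the exact binomial adjusted p of Ankrd1 was 0.00197. With an assumed coefficient of variation of 0.1 between replicates, edgeR's exact test gave adjusted p = 0.719 for Ankrd23 and 1 for each of the other 5, so the calls at any ratio hold only for counting error. The part of the atrial, thymic and fibroblast RNA named above in these ratios was not tested.

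The transcripts of each member were divided by the RSEM-style and the kallisto-style tables, in both of which reads common to several transcripts are shared out by an estimate. The leading transcript differed between the tables for 2 of the 6 detected members, Ankrd23 and Smpx, as it did for 23.6% of 10742 detected genes with 2 or more transcripts.

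**Figure D3:**
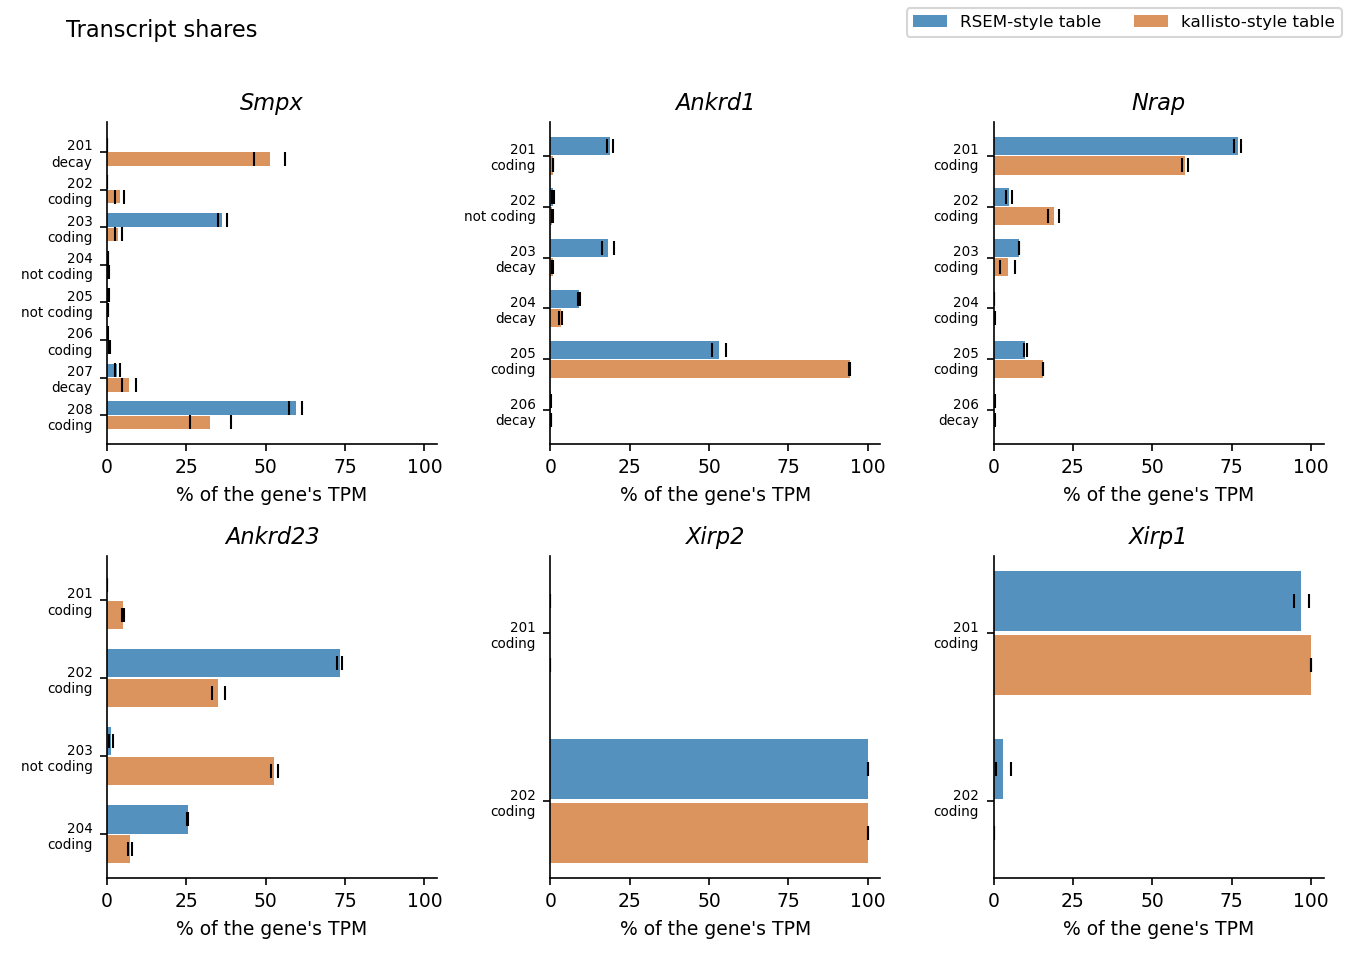
Share of each transcript in its gene's TPM, in percent, with bars for the mean of both libraries (blue, RSEM-style; orange, kallisto-style) and ticks for each library; decay marks transcripts annotated as targets of nonsense-mediated decay and not coding marks retained introns and processed transcripts. Xirp1, Xirp2 and Nrap keep their leading transcript in both tables, Ankrd1 keeps it with a much larger share in the kallisto-style table, and Ankrd23 and Smpx change theirs.

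For Ankrd1, Ankrd1-205 led in both tables but by very different margins. Its share was 55.3% in replicate 1 and 50.8% in replicate 2 by RSEM (53.1 ± 3.19%), and 94.5% and 94.2% by kallisto (94.4 ± 0.195%). RSEM gave the rest chiefly to Ankrd1-201 (18.9%) and to the decay-annotated Ankrd1-203 (18.2%) and Ankrd1-204 (8.95%), which kallisto put at 0.832%, 0.710% and 3.30%. Ankrd1-205 begins 189 bases upstream of the other 5 transcripts. The 12-base exon extension shown above separates the coding forms, since Ankrd1-205 has 957 coding bases and Ankrd1-201, without it, has 945. Transcripts with the extension made up 81.1 ± 1.29% by RSEM and 99.2 ± 0.0501% by kallisto. That share includes a retained intron and the decay-annotated transcripts besides Ankrd1-205. Ankrd1-205 alone, the longer coding form, led in both libraries and both tables with the shares given above.

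For Ankrd23 the tables differed both in the gene's TPM and in its transcripts, while kallisto gave it no more counts. Its counts were 2931 and 4688 by RSEM and 2692 and 4650 by kallisto. The kallisto-style tables gave 86.0 TPM in replicate 1 and 134 in replicate 2, a mean 1.82 times that of the RSEM-style tables. For the other 5 detected members that ratio ran from 1.06 for Xirp1 to 1.37 for Smpx. Ankrd23 was the only member of the 6 to move by 1.5-fold, which 16.2% of 12163 detected genes did. The median ratio over detected genes was 1.20, and 4.47% were at or above that of Ankrd23. Kallisto placed 52.7 ± 1.52% of the gene's TPM in Ankrd23-203, a noncoding transcript of 663 bases, to which RSEM gave 1.30 ± 0.881%. That kallisto share rested on 451 counts in replicate 1 and 850 in replicate 2, since TPM divides counts by length. Ankrd23-203 has 30 words of 31 bases that recur in 335 further genes besides Gm42417.

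RSEM gave the lead to Ankrd23-202, at 74.1% in replicate 1 and 72.4% in replicate 2, and kallisto gave it 37.2% and 33.1%. Ankrd23-204, which lacks the 99-base exon printed above, took 25.4 ± 0.282% by RSEM and 7.19 ± 0.947% by kallisto. Among transcripts that reach that exon or skip it, those with it held 74.2 ± 0.516% (RSEM) and 84.8 ± 2.49% (kallisto). The skipping form was the smaller in each library, by either table.

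Ankrd23 also has separate annotated starts. Ankrd23-202 and Ankrd23-203 begin 782 to 1144 bases upstream of Ankrd23-201 and Ankrd23-204. Transcripts annotated with the upstream starts held 74.6 ± 0.282% of TPM by RSEM and 87.8 ± 1.35% by kallisto, although the tables chose different transcripts there. These are shares of whole transcripts, and use of the starts themselves was not measured. Ankrd23-202 also ends further downstream, at 6.70 kb from the most upstream start, against 6.35 kb for Ankrd23-201 and 5.56 kb for Ankrd23-204. The annotated coding sequence of Ankrd23-202 is 576 bases, shorter than the 918 bases of Ankrd23-201, which took 0% by RSEM and 5.02% by kallisto.

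**Figure D4:**
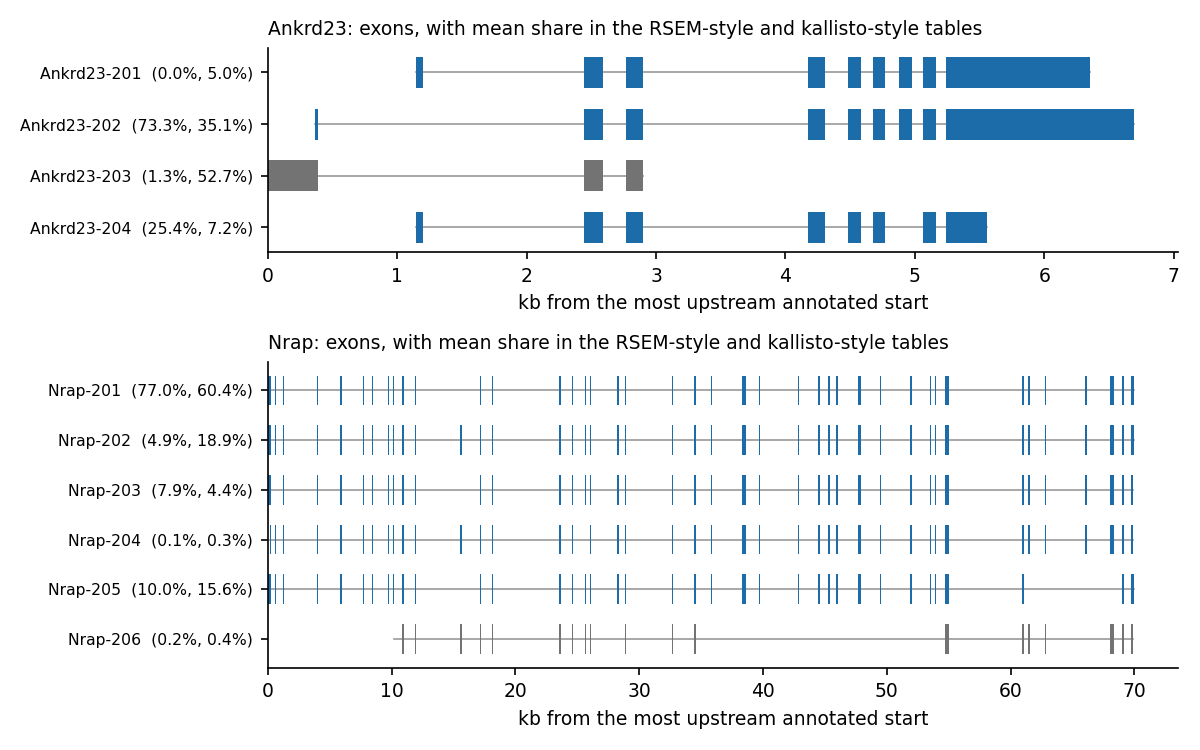
Exons of the annotated transcripts of Ankrd23 and Nrap, drawn to scale in kb from the most upstream start, in blue for coding and grey for other transcripts; the percentages are mean shares by the RSEM-style and kallisto-style tables. Ankrd23-203 covers only the first 3 exons and takes 1.3% or 52.7%, and the cassette exon of Nrap-202 lies between 15 and 16 kb.

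Ankrd1 is a known target of the Hippo pathway's TEAD factors, which bind the motif CATTCC, so that motif was searched on both strands in the 250 bases before each start in RefSeq (GRCm38.p6). The table matched 6 members with 7 windows, and Xirp1 had none. The motif was found 2 times in the Ankrd1 window and 1 time before the downstream start of Ankrd23, in no other window, and in 12.6% of 32851 promoters of the same length. The Ankrd1 window lies inside the first exon of Ankrd1-205, downstream of the start of that leading transcript. A match of letters is a description and not a binding site. The window before the downstream Ankrd23 start, whose transcripts held the smaller share of TPM, is shown with the motif in capitals.
Ankrd23 downstream promoter (chr1:36535740-36535989, minus strand): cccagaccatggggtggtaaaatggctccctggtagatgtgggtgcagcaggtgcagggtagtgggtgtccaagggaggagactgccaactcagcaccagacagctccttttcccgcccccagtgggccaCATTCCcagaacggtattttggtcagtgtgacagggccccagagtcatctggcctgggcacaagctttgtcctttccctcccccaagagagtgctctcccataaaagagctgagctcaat

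Nrap was made mainly without its cassette exon. This 105-base exon, shown above, separates the skeletal form of the protein, known as N-RAP-s, from the cardiac form, N-RAP-c, which lacks it. Transcripts with the exon made up 4.47% in replicate 1 and 5.81% in replicate 2 by RSEM (5.14 ± 0.951%), and 18.3% and 20.9% by kallisto (19.6 ± 1.89%). The form without the exon therefore led in both libraries and tables, while the size of the minor share differed 3.81-fold between the tables. The skeletal muscle markers stood at 4.06 and 5.10 TPM in sum, with Myh2 and Myod1 at 0 counts, and their part in that share was not tested.

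Nrap-201 alone took 77.0 ± 1.59% by RSEM and 60.4 ± 1.23% by kallisto. Another form, Nrap-205, lacks 4 late exons of 624 bases in all (chromosome 19, between 56321723 and 56328599) and took 9.97 ± 0.705% and 15.6 ± 0.173%. Nrap-203 lacks the second exon printed above and took 7.92 ± 0.0664% by RSEM. By kallisto its share was 6.76% in replicate 1 and 2.10% in replicate 2, the widest spread among the larger Nrap forms. Habp2 and Gm17197, which overlap Nrap on the other strand, had at most 1 count in either library.

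Xirp2 used a single annotated transcript. Xirp2-202, with the 16-base extension shown above, took 100% by RSEM in both libraries and 99.996 ± 0.00511% by kallisto. The annotated coding sequence is 9849 bases with it and 11352 without it in Xirp2-201. Xirp1-201 took 99.3% in replicate 1 and 94.6% in replicate 2 by RSEM and 100% by kallisto. The remainder by RSEM was Xirp1-202, a fragment of 321 bases at 0.35 and 2.55 TPM on 2.37 and 20.75 counts.

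The transcript shares of Smpx differed widely between the tables, while the share of its coding sequence differed little. By RSEM, Smpx-208 led at 59.5 ± 2.94% and Smpx-203 followed at 36.3 ± 2.01%. By kallisto, Smpx-201, to which RSEM gave 0%, led with 46.3% in replicate 1 and 56.2% in replicate 2. Smpx-208 had 32.5 ± 9.24% and Smpx-203 had 3.54 ± 1.53% there. Smpx-201, Smpx-202, Smpx-203 and Smpx-208 share the coding sequence printed above, and together they made up 95.8 ± 0.922% by RSEM and 91.4 ± 2.78% by kallisto. Smpx-201 is annotated as a target of nonsense-mediated decay although its coding sequence is the same. An untranslated exon of 35 bases was carried by 62.9 ± 1.80% of the TPM by RSEM and 91.5 ± 0.418% by kallisto.

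The partners of these proteins were measured as lists. Of 15 titin and Z-disc genes, 14 were detected and 0 were called between the libraries, against 3.17% of all genes. At any ratio 6 were higher and 4 lower in replicate 2, against 21.6% of all genes and 50.2% of genes with 2500 or more counts in each library, and the median log2 ratio was -0.01. Titin itself, Ttn, was at 1062 ± 31.7 TPM, the crosslinker Actn2 at 816 ± 3.59 and the LIM protein Fhl2 at 745 ± 124. Fhl2, which binds the titin N2B region, was 1.25-fold higher in replicate 2 (exact binomial adjusted p = 4.43e-190), past the test at any ratio only. Capn3, the protease that binds titin at N2A, was at 0.37 and 1.20 TPM and is named because it was the single gene of the list not detected.

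Of 3 nebulin relatives of Nrap, 0 were called at 2-fold (3.17% of all genes) and 1 was lower in replicate 2 at any ratio (21.6%). Nebl, the cardiac member, stood at 208.3 ± 1.03 TPM, above Nrap, Lasp1 stood at 21.6 ± 1.72, and Neb, the skeletal giant, at 1.39 ± 0.354. All 15 junction and actin partners of the Xin proteins and Nrap were detected. At 2-fold 0 were called (3.17% of all genes), and at any ratio 2 were higher and 3 lower in replicate 2 (21.6% of all genes and 50.2% of those with 2500 or more counts in each library). They were led by the catenin genes Ctnna1 (234 ± 1.80 TPM) and Ctnnb1 (222 ± 2.10) and by N-cadherin, Cdh2 (101 ± 2.29).

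The Hippo and stretch-responsive list was the only one of these partner lists with called genes. All 16 of its symbols found were detected (Cyr61 and Ctgf were present as Ccn1 and Ccn2). At 2-fold 1 was called higher and 1 lower in replicate 2, against 2.44% and 0.728% of all genes. At any ratio 4 were higher and 6 lower, against 10.7% and 10.9% of all genes. In either direction, 50.2% of genes with 2500 or more counts in each library passed at any ratio. The stress-induced factor Atf3 was called higher in replicate 2, from 1.66 to 3.90 TPM (exact binomial adjusted p = 4.31e-12). Nppa, an atrial hormone that also stands in the atrial list, was called lower, from 841 to 242 TPM. The highest gene was Myh7, the slow myosin heavy chain, at 981 and 822 TPM, lower in replicate 2 at any ratio (0.838; exact binomial adjusted p = 3.55e-142). Acta1, skeletal actin, was at 115 and 147 TPM and 1.25-fold higher (exact binomial adjusted p = 3.35e-32). The TEAD factor gene Tead1 was at 60.9 and 63.0 TPM and did not pass the threshold (exact binomial adjusted p = 0.0641).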

How the data were processed

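Total RNA of mouse heart was sequenced in 2 libraries of a single group. Per the file headers, the authors deposited RSEM-style tables of expected counts, TPM and percent of each gene's TPM per transcript, and kallisto-style tables of estimated counts and TPM. The authors' readme names mm10 and annotation M21, with the aligner and software versions not given in the sources used here. The members and lists were chosen with earlier results of these data known; named genes were the members, and from each partner list the highest 2 to 4 genes, those below 1 TPM in both libraries and those called. Capn3 and the cell type markers named one by one were picked after their values were seen.

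Expected counts were rounded. Genes that reached 10 counts in both libraries or a total of 20 were tested with the exact binomial test (scipy 1.17.1). Library sizes were scaled by TMM (edgeR 4.0.16), with Benjamini-Hochberg adjustment and Clopper-Pearson 95% intervals. The procedure was tried on simulated counts that held counting error only, so that trial does not cover variation between replicates. DESeq2 1.42.0 size factors were an alternative. Detection meant reaching 1 TPM in each library. Kallisto-style values were summed per gene, with 86 genes that had no row there set to 0, and ratios of the tables used genes above 0 in both. Identity came from pairwise alignment (Biopython 1.88). Depth limits precision through counting error only. No sample was left out.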

Additional observations from a re-analysis of the deposited data

How the results depend on the processing

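The number of members at 1 TPM (6) held at 0.5 and 5 TPM and in the kallisto-style tables. The median member level, 60.5 TPM, was 101.3 TPM in the kallisto-style tables and 143 TPM when rescaled to nuclear protein-coding genes, and 51.4 to 69.6 with either replicate left out. The median share of the transcripts that led by RSEM, 75.1%, was 77.4% for the same transcripts by kallisto. It was 82.1% by expected counts not divided by length, and 74.1% to 76.1% with either replicate left out. The near-equal medians hide large moves by kallisto in both directions. Ankrd1-205 went from 53.1% to 94.4%, Ankrd23-202 from 73.3% to 35.1%, Smpx-208 from 59.5% to 32.5% and Nrap-201 from 77.0% to 60.4%. The 526 genes called between the libraries became 230 with edgeR's exact test at a coefficient of variation of 0.2 and 3588 at any ratio, and the 0 members called became 4 at any ratio, and 0 elsewhere. The log2 ratio of Smpx, -0.03, was 0.0071 with library totals alone. With those totals Ankrd1 passed at any ratio (exact binomial adjusted p = 0.00197, log2 ratio 0.09). The order of levels changed under 2 alternatives. With protein-coding transcripts of the RSEM-style tables only, Nrap came before Ankrd1. By RSEM counts not divided by length the order was Xirp2, Nrap, Xirp1, Ankrd1, Smpx, Ankrd23 and Ankrd2. Ankrd2 rests on 1 or 2 counts and its level cannot be ranked among absent genes. No paired analysis was possible because the design holds a single group.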
